A study of Mus musculus with 10 samples.

Results

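The genes described here were the E proteins Tcf3, Tcf12 and Tcf4, the Id factors Id1, Id2 and Id3, the helix-loop-helix genes Tal1 and Lyl1, and the LIM-only genes Lmo1 and Lmo2. They were picked by symbol, through the Ensembl identifier of each row, and are 10 of the 35375 features in the count table. The rule uses symbols only, and each symbol matched 1 row. The counts came from RNA of whole thymus, depleted of ribosomal RNA, from C57BL/6J mice at day 3 after birth. Usp7 encodes a deubiquitinating enzyme, and the knockout was made in the hematopoietic system: 3 animals had lost both alleles there (homozygous KO) and 3 had lost 1 allele (heterozygous KO). The other 4 animals were wild type at Usp7. The series lists 2 of them as cre-induced and 2 as not, without naming which, and the promoter that drives Cre is not given in the sources used here. A thymus also holds stromal cells, which are not part of the hematopoietic system.

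E proteins are transcription factors of the basic helix-loop-helix class. They bind short E-box motifs as dimers and drive the gene program of developing T cells. Id factors dimerize with them but have no DNA-binding region, so the pair cannot hold DNA. TAL1 and LYL1 bind DNA when paired with an E protein, and LMO1 and LMO2 bind no DNA themselves but connect such pairs to LDB1 and GATA factors. Tal1 and Lmo2 are active in blood stem cells, in the red cell lineage and in endothelium, are low in maturing thymocytes, and are known as oncogenes of T-cell leukemia together with Lyl1 and Lmo1.

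The promoters of 3 members are shown because Tal1 and Lmo1 differed between genotypes and Lyl1 is the closest relative of Tal1. Each comes from RefSeq on GRCm38.p6 and reads 5′ to 3′ along the gene's own strand. Capitals mark the E-box CANNTG, the motif that E proteins and their partners bind, which reads as CANNTG on both strands. The Tal1 stretch is chr4:115056176-115056455 on the plus strand, 250 bases before the start and 30 after it. The Lyl1 stretch is chr8:84701207-84701456 on the plus strand and the Lmo1 stretch chr7:109175208-109175457 on the minus strand, both with the 250 bases before the start only.
Tal1: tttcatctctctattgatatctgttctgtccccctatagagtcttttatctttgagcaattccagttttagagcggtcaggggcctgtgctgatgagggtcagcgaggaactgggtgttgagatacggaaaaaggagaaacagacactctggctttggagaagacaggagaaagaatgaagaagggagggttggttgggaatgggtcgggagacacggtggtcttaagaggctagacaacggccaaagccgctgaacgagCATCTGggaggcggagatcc
Lyl1: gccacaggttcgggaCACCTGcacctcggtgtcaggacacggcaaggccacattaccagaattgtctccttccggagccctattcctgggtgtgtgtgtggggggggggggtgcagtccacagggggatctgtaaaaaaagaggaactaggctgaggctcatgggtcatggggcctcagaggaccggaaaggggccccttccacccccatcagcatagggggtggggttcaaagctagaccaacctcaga
Lmo1: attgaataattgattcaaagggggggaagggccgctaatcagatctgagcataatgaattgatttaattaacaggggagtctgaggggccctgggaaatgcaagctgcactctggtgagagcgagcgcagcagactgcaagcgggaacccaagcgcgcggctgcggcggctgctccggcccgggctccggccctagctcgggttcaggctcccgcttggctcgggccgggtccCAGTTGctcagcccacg
The Tal1 motif lay 10 bases after the start, the Lmo1 motif 17 bases before it and the Lyl1 motif 235 bases before it. RefSeq windows of 300 bases (250 before and 50 after a start) were at hand for 7 members, in 11 windows, and there was no entry for Tcf4, Id1 and Lmo2. Of the 11 windows, 9 held an E-box, from 6 of the 7 members, and Id3 held none. The motif is common, since 72.3% of 32851 such windows in the genome hold it. The first Tal1 window was the only one of the 11 with AGATAA, the kind of motif that GATA factors bind, searched on both strands, and 11.2% of all windows hold it.

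Levels are given in CPM (counts of a gene per M counts of its library, M for mega, after TMM scaling). The wild-type libraries were the shallowest, with totals of 39.8 to 86.4 M counts, against 90.5 to 97.4 M for the heterozygous and 92.3 to 122 M for the homozygous animals. A count of 0 allows up to 3 counts, which is 0.0245 CPM in the largest library and 0.0753 CPM in the smallest, and such limits cover counting error only. Usp7 itself was 303, 422 and 408 CPM in the homozygous animals, 472, 516 and 516 in the heterozygous ones and 676, 670, 594 and 589 in wild type, so the libraries followed their labels without overlap. Homozygous KO held 59.7% of the wild-type mean (log2 fold change -0.74, SE 0.11, edgeR's adjusted p = 5.2e-04) and heterozygous KO 79.2% (adjusted p = 0.608 in the same test). Markers of double-positive thymocytes, the main cell of the thymus, were high in every library, with Cd8a at 1476 to 1577 CPM in homozygous KO and 1135 to 1376 CPM elsewhere. Of 10 such markers Cd8a was higher in homozygous KO than in wild type and Rag1 and Dntt were lower. Xist, transcribed in females, was 1913 to 2459 CPM in homozygous KO 3 and wild type 2, 3 and 4 and at most 1.12 CPM in the other libraries, so the sexes were not balanced between the groups. In whole tissue, fewer cells of a type and less RNA per cell cannot be told apart.

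All 10 members passed the filter on low counts and entered the test of 19511 features. In wild type, with CPM divided by the length of the annotated exons so that genes can be compared, Tcf3 led at 57 CPM per kb. Tcf12 followed at 39.3 and Id3 at 34, and the libraries of these genes did not overlap. The next levels per kb were Id2 at 8.87, Id1 at 3.67, Lyl1 at 2.03 and Tcf4 at 1.88. Id1 overlapped with Lyl1, and Lyl1 with Tcf4. Lmo2 at 0.377, Lmo1 at 0.188 and Tal1 at 0.0706 CPM per kb closed the order, and the last pair overlapped. Wild-type thymus thus held Tcf3, Tcf12 and Id3 RNA well above that of the oncogenes Tal1, Lmo1, Lmo2 and Lyl1. Tcf4 was above Tal1, Lmo1 and Lmo2 but not above Lyl1. The exon lengths join all annotated isoforms, 15.5 kb for Tcf12 and 27.4 kb for Tcf4, which lowers the per-length level of these genes against the others.

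**Figure D1:**
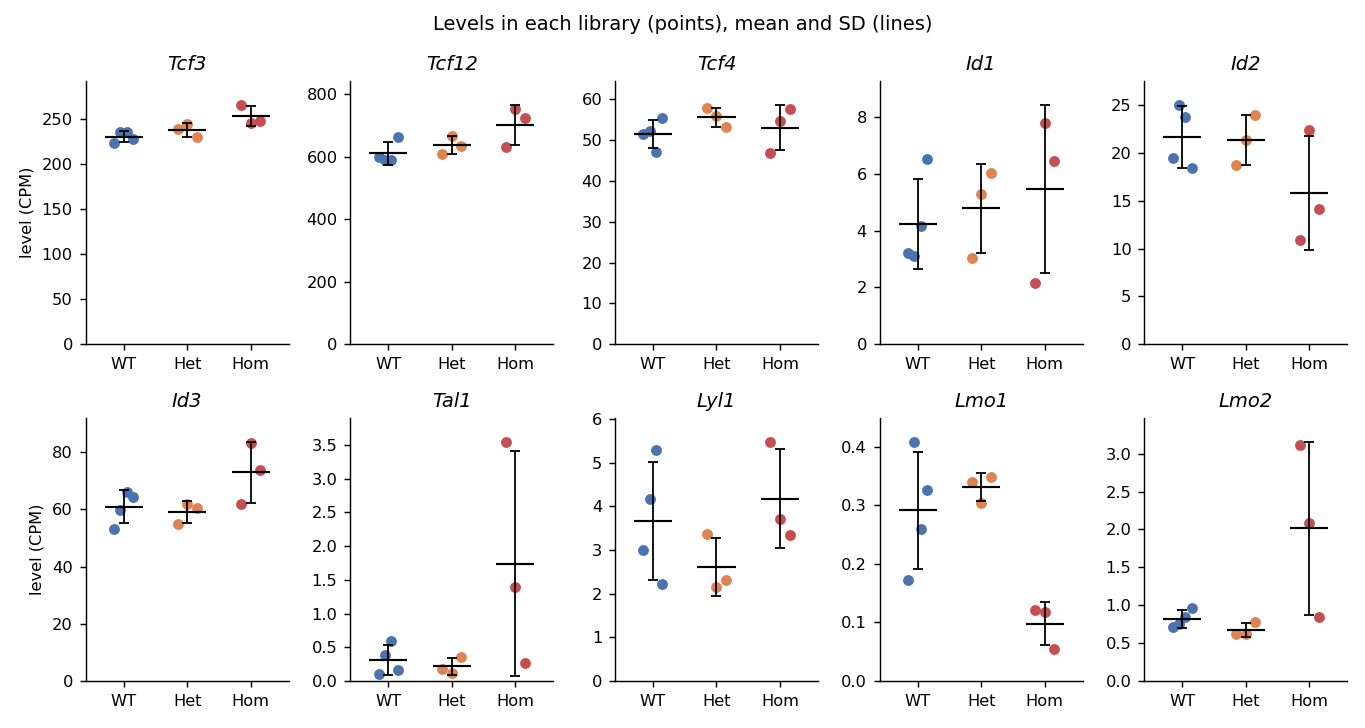
Level of each of the 10 genes in CPM (vertical axes, from 0) in wild type (WT), heterozygous KO (Het) and homozygous KO (Hom). Points are libraries, horizontal lines the mean and bars the SD of 3 or 4 libraries. Homozygous KO lies below every other library for Lmo1, and for Tal1 and Lmo2 its points are spread from the wild-type level to far above it.

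Between homozygous KO and wild type, 3 of the 10 members passed an adjusted p under 0.05 in edgeR's quasi-likelihood test: Tal1 and Lmo2 were higher and Lmo1 lower. Over all features tested 25.8% passed, 12.5% higher and 13.2% lower. The count of members was therefore near what the whole table gave. Their median log2 fold change was 0.19, against -0.01 over all features, and the median size of the change was 0.31 against 0.27. Without overlap between the groups were 2 members, Tcf3 and Lmo1, while 32.7% of all features did not overlap. No E protein or Id factor passed, nor did Lyl1.

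Tcf3 was the least variable E protein. It stood at 265, 245 and 247 CPM in the homozygous animals, 238, 244 and 229 in the heterozygous ones and 223, 235, 235 and 227 in wild type. Every homozygous library was above every other one, by a small margin. The log2 fold change against wild type was 0.13 (SE 0.05, 95% interval 0.03 to 0.24, edgeR's adjusted p = 0.0642), and it did not pass. Of 22 alternatives 1 called Tcf3, a fit with ranges of animal numbers as a block (0.15, adjusted p = 0.0299). Tcf12, which encodes HEB, the most abundant E protein by CPM, was 629, 751 and 723 CPM in the homozygous animals, 609, 666 and 634 in the heterozygous ones and 600, 589, 588 and 664 in wild type. Homozygous KO 1 lay among the other genotypes and the other homozygous libraries were above them. Its log2 fold change was 0.20 (SE 0.07, edgeR's adjusted p = 0.0613). Leaving out homozygous KO 1 brought it to 0.27 (adjusted p = 0.0138), leaving out wild type 4 to 0.24 (adjusted p = 0.03), and DESeq2 called it (adjusted p = 0.0376). Without homozygous KO 2 it was 0.15 (edgeR's adjusted p = 0.196), and without homozygous KO 3 0.18 (0.148). Tcf12 was called in 4 of 22 alternatives.

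Tcf4, the third E protein, stood at 46.9, 54.6 and 57.7 CPM in the homozygous animals, 57.9, 55.8 and 53.2 in the heterozygous ones and 51.4, 52.3, 47.2 and 55.5 in wild type. The genotypes were mixed together. The log2 fold change was 0.04 with a 95% interval from -0.14 to 0.22, so a change of the size seen for Tal1 or Lmo2 is outside it, and with library totals in place of TMM the value was -0.05. Tcf4 is known to be used by plasmacytoid dendritic cells, B cells and fibroblasts as well. Of 9 plasmacytoid markers tested 1 was higher and 4 were lower, among them Siglech, a defining marker at 0 to 0.0174 CPM in homozygous KO and 1.7 to 2.85 CPM in wild type. Their summed level, 556 to 658 CPM against 768 to 828 CPM, was mostly Ccr9, which thymocytes express too and which did not pass. B cell markers summed to 7.73 to 10.3 CPM against 35.2 to 57.1 CPM (8 of 9 lower). Fibroblast markers were on the other side, with 99.7 to 131 CPM against 52.1 to 63.3 CPM (5 higher and 1 lower of 8), most of it Fbln1 at 71.2 to 80.8 CPM against 23.4 to 28.2 CPM. The part of these cells in the Tcf4 level was not tested. Tcf12 made up 66.8% to 71.4% of the summed E-protein CPM in all 10 libraries. The makeup of the E-protein pool by CPM thus differed little between genotypes.

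Id3, the main Id factor by CPM here and a gene induced by receptor signals in thymocytes, was 62, 83.3 and 73.7 CPM in the homozygous animals, 54.7, 62 and 60.3 in the heterozygous ones and 53.2, 59.9, 66.2 and 64.4 in wild type. Homozygous KO 2 and 3 were above all wild types, and homozygous KO 1 was among them. The log2 fold change was 0.26 (SE 0.10, interval 0.03 to 0.49, edgeR's adjusted p = 0.0871), and 0.36 without homozygous KO 1 (adjusted p = 0.0189). It was 0.16 without homozygous KO 2 (adjusted p = 0.309) and 0.26 without homozygous KO 3 (0.168). Id3 was called in 2 of 22 alternatives. Id2, which supports innate lymphoid and dendritic cells, was 10.9, 22.4 and 14.1 CPM in the homozygous animals, 18.7, 21.3 and 24 in the heterozygous ones and 19.5, 25, 23.7 and 18.4 in wild type. Homozygous KO 1 and 3 were below every other library and homozygous KO 2 was inside the wild-type range. The log2 fold change was -0.45 (SE 0.21, edgeR's adjusted p = 0.144), and without homozygous KO 2 it was -0.79 (adjusted p = 0.00693). Without homozygous KO 1 it was -0.25 (adjusted p = 0.383), and without homozygous KO 3 -0.38 (0.321). Id2 was called in 2 of 22 alternatives.

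Values of cell types that use Id2 stand beside it. All 10 markers of conventional dendritic cells were lower in homozygous KO than in wild type, and their summed level was 23.5 to 30.5 CPM against 90.5 to 132 CPM. Of 10 markers of innate lymphoid and NK cells, Gzmb was higher and 4 were lower, among them Eomes (0.142 against 1.27 CPM) and Ncr1 (0.262 against 0.881 CPM). Their summed level, 163 to 212 CPM against 153 to 188 CPM, was mostly Gata3, which T cells express too. No marker of these lists was at 0 in every library, and the part of either cell type in the Id2 value was not tested. Id1 was 2.14, 7.8 and 6.47 CPM in the homozygous animals, 3.02, 5.3 and 6.03 in the heterozygous ones and 3.22, 3.1, 4.17 and 6.52 in wild type. Its spread within each genotype was wider than any difference between them (log2 fold change 0.35, SE 0.41, edgeR's adjusted p = 0.57). The share of Id3 in the summed Id CPM was 73.4% to 82.6% in homozygous KO, 66.7% to 71.6% in heterozygous KO and 68.1% to 72.1% in wild type, so each homozygous library was above all others.

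Id1 and Tcf12 followed the animal numbers in the labels. These numbers fall into 44 to 51 (5 libraries) and 56 to 63 (5 libraries), and every genotype has animals in both ranges. Id1 was 2.14 to 4.17 CPM in the lower numbers and 5.3 to 7.8 CPM in the higher ones, a difference of 1.06 on the log2 scale. Tcf12 was 588 to 629 CPM in the lower numbers and 634 to 751 CPM in the higher ones, a log2 difference of 0.19. These 2 of 10 members did not overlap between the ranges, while 6.29% of all tested features did not. The split was seen in the data before it was used here, so no test is given, and what the numbers stand for (a litter, a day) is not stated. Within the ranges the homozygous minus wild-type log2 difference of Id1 was -0.69 (1 library against 3) and 0.12 (2 against 1), and that of Tcf12 0.09 and 0.15. With the ranges as a block in edgeR's fit, the Tcf12 value was 0.13 (adjusted p = 0.0728). For Tcf12 the homozygous libraries were the highest in both ranges. They held 629 CPM against 588 to 609 CPM in the lower numbers, and 751 and 723 CPM against 634 to 666 CPM in the higher ones.

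**Figure D2:**
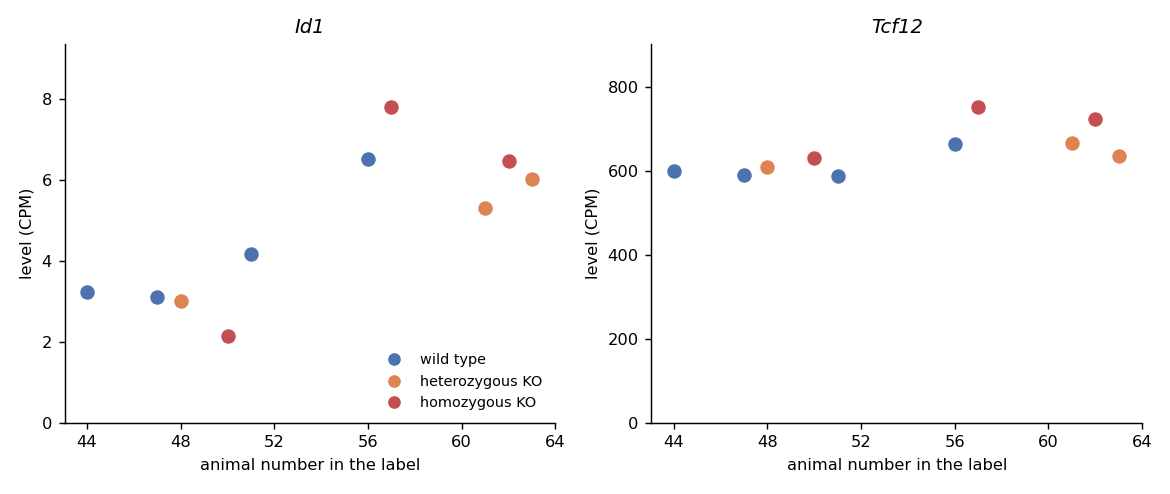
Level of Id1 and Tcf12 in CPM (vertical axes, from 0) against the animal number in the label (horizontal axes), 1 point per library, colored by genotype. Id1 stays at or below 4.17 CPM up to animal 51 and at or above 5.3 CPM from animal 56, in each genotype.

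Tal1 varied most between animals, relative to its mean. It is ENSMUSG00000028717, a gene of the plus strand at chr4:115056426-115071755 (GRCm38). In homozygous KO it was 3.55, 1.39 and 0.266 CPM (409, 142 and 24 counts), in heterozygous KO 0.18, 0.115 and 0.349 CPM (18, 11 and 32 counts), and in wild type 0.0982, 0.385, 0.596 and 0.157 CPM (4, 16, 53 and 13 counts). Homozygous KO 1 and 2 were above all other libraries, and homozygous KO 3 was inside the range of both other genotypes. The mean of 1.73 ± 1.67 CPM (SD, n = 3) in homozygous KO against 0.309 ± 0.228 CPM (SD, n = 4) in wild type was a log2 fold change of 2.44 (SE 0.76, edgeR's adjusted p = 0.0367). The call was lost without homozygous KO 1 (log2 fold change 1.38, adjusted p = 0.205), without homozygous KO 2 (0.0553) and without wild type 1 (0.0888), 2 (0.0717) or 4 (0.0819). Within the animal-number ranges the log2 difference was 3.61 in the lower numbers and 1.92 in the higher ones.

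Lmo2, ENSMUSG00000032698 on the plus strand at chr2:103957986-103981878, showed the same order of homozygous animals. It was 3.12, 2.09 and 0.842 CPM in the homozygous animals, 0.62, 0.618 and 0.784 in the heterozygous ones and 0.712, 0.746, 0.844 and 0.967 in wild type. Homozygous KO 1 and 2 were above every other library, and homozygous KO 3 was within the wild-type range. The log2 fold change was 1.29 (SE 0.36, edgeR's adjusted p = 0.0215). It was 0.83 without homozygous KO 1 (adjusted p = 0.106), and the call was also lost without homozygous KO 2 (0.0536), wild type 1 (0.0565) or wild type 2 (0.0552). Within the lower animal numbers the log2 difference was 2.02, and within the higher numbers 0.46. With both of these homozygous libraries left out, a setting chosen after seeing the data, the value was 0.04 for Lmo2 and -0.25 for Tal1, with 1 homozygous library remaining.

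The erythroid genes Slc4a1 and Klf1 had the same order over the homozygous animals. Slc4a1, the anion exchanger of red cells, was 124, 55 and 2.13 CPM in homozygous KO, 0.98 to 3.86 CPM in heterozygous KO and 2.95 to 16.1 CPM in wild type, and it did not pass against wild type (log2 fold change 2.54, adjusted p = 0.0643). Klf1, a master regulator of erythroid genes, was 2.46, 1.63 and 0.676 CPM in homozygous KO against 0.144 to 0.43 CPM in the other libraries, and it passed the test (log2 fold change 2.63, edgeR's adjusted p = 0.00203). The whole erythroid list held 9 genes of the table, of which 8 were tested and 2 were higher in homozygous KO than in wild type, Klf1 and the erythropoietin receptor Epor (log2 fold change 1.27, edgeR's adjusted p = 0.00375). Epor had another order, with 1.84, 0.968 and 1.35 CPM in homozygous KO, all above the 0.481 to 0.79 CPM of the other libraries, and so had Hemgn, at 22.9, 11.7 and 13.7 CPM. The summed level of the list was 459, 335 and 191 CPM in homozygous KO, 218 to 244 CPM in heterozygous KO and 227 to 303 CPM in wild type. Tfrc was its largest part in every library, at 221, 191 and 164 CPM in homozygous KO and 175 to 244 CPM elsewhere. Tfrc did not pass against wild type (log2 fold change -0.14, edgeR's adjusted p = 0.47). Alas2, of heme synthesis, was 60.1, 64.3 and 7.07 CPM in homozygous KO and 8.72 to 47.3 CPM elsewhere, so wild type too held this RNA. No marker of this list was at 0 in every library, and the part of red cell precursors in the Tal1 and Lmo2 values was not tested.

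The genes whose log2 CPM was most like that of Lmo2 over the 10 libraries were Ank1 (Pearson r = 0.960), Sox6 (r = 0.956) and Sptb (r = 0.956). Ank1, which encodes the red cell ankyrin, was 16.4, 7.89 and 0.166 CPM in homozygous KO, with means of 0.288 CPM in heterozygous KO and 0.447 CPM in wild type. Among those most like Tal1 were Trp53 (r = 0.949) and Cpox (r = 0.937), an enzyme of heme synthesis at 39.4, 33.6 and 24.9 CPM in homozygous KO. Such correlations share the libraries, their depth and their genotypes, and they are descriptions. Between Tal1 and Lmo2 themselves r was 0.89, and between Tal1 and Lyl1 0.73.

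**Figure D3:**
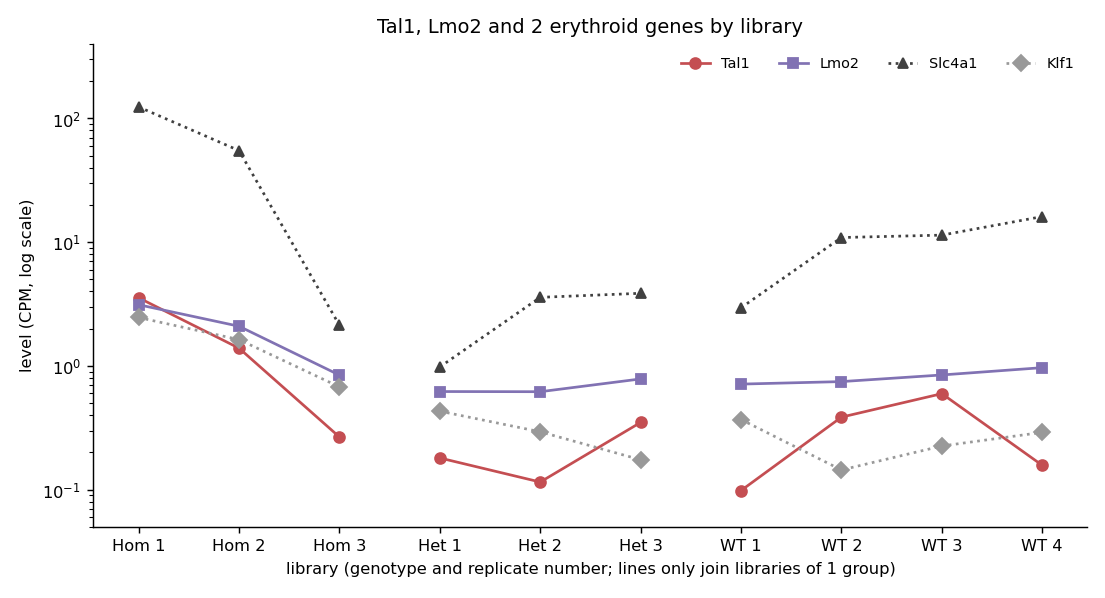
Levels of Tal1, Lmo2 and 2 erythroid genes (Slc4a1, Klf1) in CPM on a log axis, in each library (horizontal axis, genotype and replicate number). All 4 genes run from high to low over homozygous KO 1, 2 and 3, and in homozygous KO 3 Tal1 (0.266 CPM) and Lmo2 (0.842 CPM) lie within the wild-type range.

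Markers of other cells that use Tal1 or Lmo2 were read beside the values of these genes. Of 9 endothelial markers tested, Tie1 and Ptprb were higher in homozygous KO than in wild type and Egfl7 was lower (log2 fold change -0.59, adjusted p = 0.0274). Kdr averaged 1.48 against 1.5 CPM. Their summed level, 154 to 167 CPM against 147 to 161 CPM, was mostly Pecam1. Tie1, an endothelial receptor, was 0.443, 1.85 and 0.554 CPM in homozygous KO and 0.0523 to 0.338 CPM in the other libraries (log2 fold change against wild type 2.50, edgeR's adjusted p = 0.0239), with its highest level in homozygous KO 2. Of 10 early progenitor markers 7 were lower than in wild type, and their summed level of 92.3, 330 and 200 CPM in homozygous KO was mostly Il2ra, which did not pass. Of 3 mast cell markers tested only Cpa3 was lower (0.301 against 7.94 CPM), Hdc averaged 2.12 against 2.3 CPM, and Fcer1a had 3 counts or fewer in each library. Il1rl1 ran in the order of Tal1 and Lmo2, at 0.417, 0.245 and 0 CPM in homozygous KO, against 0.163 to 0.516 CPM in the other libraries. Xist set homozygous KO 3 (2042 CPM) apart from homozygous KO 1 and 2 (1.11 and 1.12 CPM), as Tal1 and Lmo2 did within this genotype. The other libraries low in Xist, all heterozygous ones and wild type 1, held Tal1 at 0.0982 to 0.349 CPM and Lmo2 at 0.618 to 0.784 CPM. With Xist as a covariate neither Tal1 nor Lmo2 was called (edgeR's adjusted p = 0.335 and 0.155). The part of these cell types in either value was not tested.

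Lyl1, a relative of Tal1 that is active in early progenitors, was 5.48, 3.7 and 3.35 CPM in the homozygous animals, 3.36, 2.14 and 2.3 in the heterozygous ones and 3, 4.16, 5.28 and 2.21 in wild type. The genotypes overlapped, with the heterozygous libraries toward the low end. The log2 fold change of homozygous KO against wild type was 0.19 (SE 0.30, interval -0.47 to 0.84, edgeR's adjusted p = 0.679). An exon of Lyl1 overlaps an exon of Nfix on the opposite strand, and whether counting used the strand is not given in the sources used here, so some of these reads may be shared.

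Lmo1, ENSMUSG00000036111 on the minus strand at chr7:109138572-109175207, moved the other way. It was 0.121, 0.117 and 0.0554 CPM in homozygous KO (14, 12 and 5 counts), 0.34, 0.304 and 0.349 CPM in heterozygous KO (34, 29 and 32 counts), and 0.172, 0.409, 0.259 and 0.326 CPM in wild type (7, 17, 23 and 27 counts). Each homozygous library was below each of the other 7, although the counts are small and all levels are under 1 CPM. The homozygous mean was 33.6% of wild type (log2 fold change -1.54, SE 0.41, interval -2.45 to -0.64, edgeR's adjusted p = 0.0177). Without homozygous KO 3 the value was -1.27 (adjusted p = 0.0681). With Xist as a covariate it was -1.50 (adjusted p = 0.0654), and within the animal-number ranges it was -1.08 and -1.93. The genes most like Lmo1 over the libraries were BC048403 (r = 0.950), Mthfs (r = 0.949) and Bcl2a1b (r = 0.949), the last an anti-apoptotic gene of the Bcl2a1 family, whose near-identical copies make its counts uncertain.

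**Figure D4:**
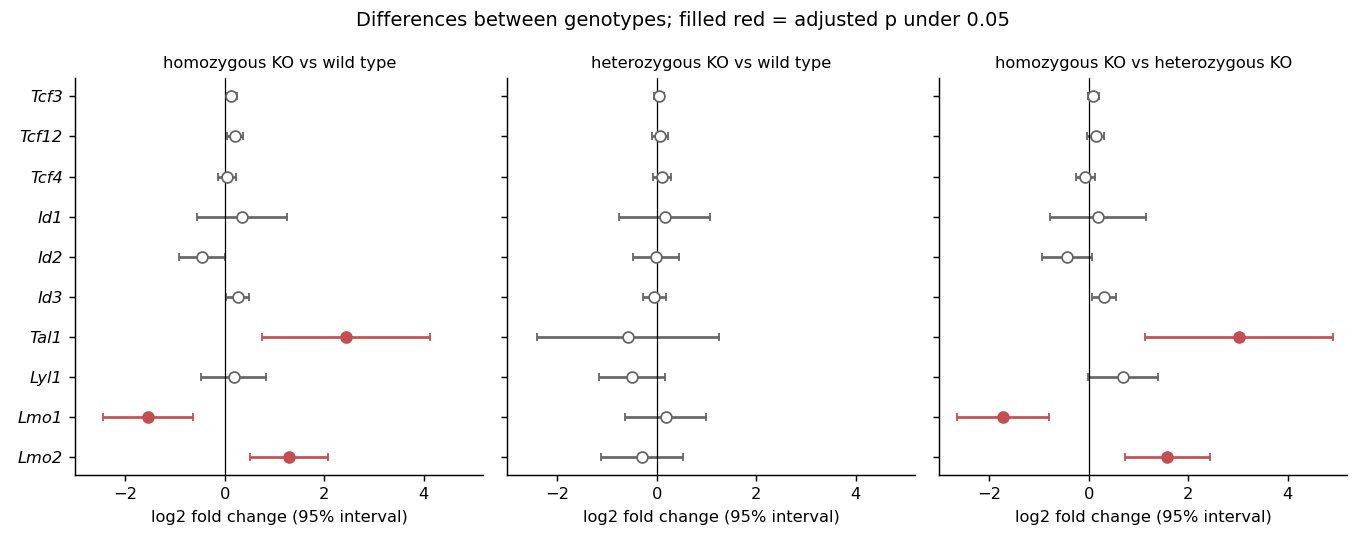
Log2 fold change of each gene (horizontal axes) with its 95% interval in the 3 comparisons, from edgeR. Filled red points passed an adjusted p under 0.05: Tal1, Lmo1 and Lmo2 in both comparisons of homozygous KO, and none in heterozygous KO against wild type.

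The heterozygous animals were set against the wild types to read the loss of 1 allele. Xist was low in all heterozygous libraries and high in wild type 2, 3 and 4. Genotype and sex thus largely coincide in this comparison and cannot be fully told apart. None of the 10 members passed in edgeR's quasi-likelihood test, 0 had an unadjusted p under 0.05, and DESeq2 called 0 as well. Over all features 0.0154% passed, that is 3 features. None of the members was without overlap between these groups, against 8.69% of all features. Their median log2 fold change was 0.01 (all features -0.01) and its median size 0.13 (all features 0.13). The intervals were narrow for the E proteins, with log2 fold changes of 0.04 for Tcf3 (-0.06 to 0.15), 0.06 for Tcf12 (-0.10 to 0.22) and 0.11 for Tcf4 (-0.07 to 0.29). For Id3 the value was -0.05 (-0.27 to 0.18) and for Id2 -0.02 (-0.48 to 0.44). The low genes had wider errors, with Tal1 at -0.57 (SE 0.83), Lmo1 at 0.18 (SE 0.37) and Lmo2 at -0.29 (SE 0.37), as had Id1 at 0.16 (SE 0.41) and Lyl1 at -0.50 (SE 0.30).

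Homozygous against heterozygous KO, a comparison that shares the homozygous libraries with the one above, again had 3 members past the threshold. All-feature shares were 17.1% called, 7.63% higher and 9.50% lower. Tal1 was higher (log2 fold change 3.02, SE 0.86, edgeR's adjusted p = 0.033), Lmo2 was higher (1.58, SE 0.39, adjusted p = 0.0168) and Lmo1 was lower (-1.72, SE 0.42, adjusted p = 0.0162). Tcf3, Id3, Lmo1 and Lmo2 did not overlap, 4 of 10, against 33.3% of all features. Without homozygous KO 1 Tal1 was 1.94 (adjusted p = 0.134) and Lmo2 1.11 (0.062), and without homozygous KO 3 Lmo1 was -1.46 (0.061). Leaving out any 1 heterozygous library (0.0593 to 0.112) or wild type 2 (0.05) ended the Tal1 call, leaving out heterozygous KO 1 or 2 the Lmo2 call (0.0621 and 0.0628), and leaving out heterozygous KO 3 the Lmo1 call (0.0579). Id3 had a log2 fold change of 0.31 (interval 0.07 to 0.55, adjusted p = 0.0821), and Lyl1 0.69 (interval -0.02 to 1.39, adjusted p = 0.185).

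LMO proteins are known to assemble with LDB1, GATA factors, SSBP proteins and corepressors. Of 17 such genes 16 were tested, and 3 were higher and 2 lower in homozygous KO than in wild type (median log2 fold change 0.06, all features -0.01). Ldb1, which encodes the LIM-domain binding protein, averaged 301 CPM in homozygous KO against 300 CPM in wild type (log2 interval -0.19 to 0.20). Gata3, the GATA factor of T cells, averaged 128 against 131 CPM (log2 interval -0.18 to 0.10). Gata1, the erythroid GATA factor, was 2.56, 2.31 and 1.08 CPM in homozygous KO and 1.31 to 1.92 CPM in the other libraries, which put its high values in the same 2 animals as Tal1. Its log2 fold change was 0.25 (edgeR's adjusted p = 0.54). Gfi1b, a repressor that TAL1 complexes contain in the red cell lineage, was 0.165, 0.117 and 0.0111 CPM in homozygous KO and 0.471 to 1.01 CPM in the others (log2 fold change -2.94, SE 0.56, adjusted p = 0.00307). Rcor1, a corepressor, was higher by 0.27 (SE 0.05, adjusted p = 0.00143), as were Ssbp4 by 0.23 (adjusted p = 0.0374) and Cbfa2t2 by 0.23 (adjusted p = 0.0402), while Cbfa2t3 was lower (-0.25, adjusted p = 0.0253). In heterozygous KO none of the 16 passed.

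Among the other genes of these families, Id4, Tal2 and Lmo4 were tested. Lmo4, a LIM-only gene expressed widely, was 68.1, 63.9 and 55.8 CPM in the homozygous animals, 53.9, 66.3 and 63.5 in the heterozygous ones and 52, 40.6, 38.4 and 57.4 in wild type. It was higher in homozygous KO (log2 fold change 0.41, SE 0.14, edgeR's adjusted p = 0.0475). The heterozygous value was of like size, 0.38 (SE 0.14), and did not pass (adjusted p = 0.645). Id4 and Tal2 were at most 0.27 CPM in every library, Lmo3 had at most 3 counts in any, and Nhlh2 was at 0 counts in all 10.

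The targets of E proteins were read beside the factors, with a list written from general knowledge and chosen with earlier results of these data known. Of 9 targets, Rag1, Cd69 and Il7r were lower in homozygous KO than in wild type and Notch1 was higher, with a median log2 fold change of -0.26 (all features -0.01). Rag1, the recombinase subunit that cuts antigen receptor genes, was 3491 ± 156 CPM (SD, n = 3) against 6300 ± 444 CPM (SD, n = 4) in wild type (log2 fold change -0.85, edgeR's adjusted p = 1.5e-05). Il7r, the interleukin-7 receptor chain, had a log2 fold change of -1.97 (SE 0.24, adjusted p = 1.5e-04) and Cd69, an early activation marker, -1.33 (SE 0.26, adjusted p = 0.00347). Notch1, the receptor that commits cells to the T lineage, rose by 1.06 (SE 0.13, adjusted p = 1.4e-04).

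Of the other targets none passed in this comparison. Rag2 had a log2 fold change of -0.54 (interval -0.99 to -0.09, edgeR's adjusted p = 0.0782) and Cdk6 -0.26 (adjusted p = 0.206). Ptcra, the pre-T-cell receptor chain, stood at 24.8 CPM in both groups, with an interval of -0.28 to 0.28. Cd4 had a log2 fold change of 0.16 (adjusted p = 0.163). Against heterozygous KO, Rag1, Cd69 and Il7r were again lower, and 3 targets were higher, Notch1 and Cd4 (0.27, adjusted p = 0.0458) among them. In heterozygous KO against wild type 0 of 9 passed, with a median of -0.11. Targets thus differed in sign within homozygous KO, while the mean levels of Tcf3, Tcf12 and Tcf4 were 110%, 115% and 103% of wild type.

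**Figure D5:**
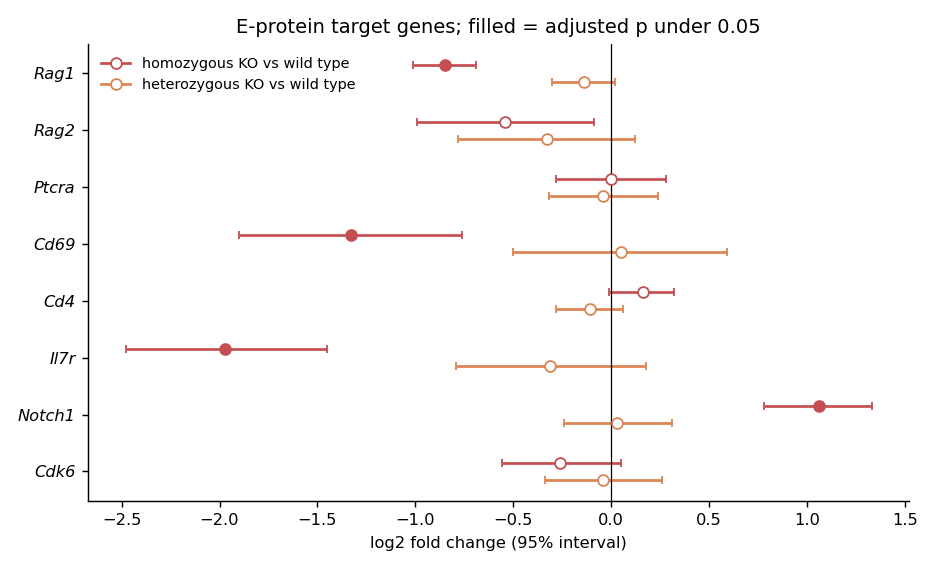
Log2 fold change with its 95% interval (horizontal axis) of 8 of the 9 E-protein target genes, each genotype against wild type (homozygous KO red, heterozygous KO orange). Filled points passed an adjusted p under 0.05: Rag1, Cd69 and Il7r below 0 and Notch1 above 0, in homozygous KO only among these 2 comparisons.

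Id genes are known to respond to antigen receptor signals through Egr factors, and to BMP signals. In the receptor-induced list, 5 of 7 genes were lower in homozygous KO than in wild type and none higher, with a median log2 fold change of -1.41. Egr1 was 26.7, 29.5 and 24.1 CPM in homozygous KO and 54.8 to 92.5 CPM in the other libraries (log2 fold change -1.41, edgeR's adjusted p = 4.6e-05), and Egr2, Egr3, Nab2 and Cd5 were the others. Id3, which these factors are known to induce, was at 120% of the wild-type mean in homozygous KO and did not pass (edgeR's adjusted p = 0.0871). Its level in homozygous KO 1 lay within the wild-type range. The part of the Egr genes in the Id3 level was not tested. In BMP signaling, 5 of 13 tested genes were higher and 4 lower. The inhibitor Smad7 (log2 fold change -2.56, adjusted p = 1.4e-04), the co-receptor Eng (-1.04, adjusted p = 1.4e-05) and the receptor Acvrl1 (-2.72, adjusted p = 1.5e-04) were lower, and the receptor Bmpr1a was higher (2.17, adjusted p = 0.00321). Id1, the Id gene best known as a BMP target, had a log2 fold change of 0.35 with an interval from -0.55 to 1.26. In heterozygous KO none of the genes of either list passed.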

How the data were processed

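RNA was sequenced from the thymus of 10 mice (3 homozygous KO, 3 heterozygous KO, 4 wild type), and the authors deposited raw read counts by gene as 1 table, not normalized. The submitters' processing notes name CASAVA, STAR 2.4.1d, HTSeq 0.6.1p1 and the builds NCBIM37 and mm9, while the study's methods describe BWA-based mapping to a human reference. The annotation release and the strand setting are not given in the sources used here. Columns were matched to samples by the animal and library number in the title. In the wild types with 1 wt word in the title the column name adds het, and they stayed wild type as titled. All 35375 features entered the library totals, which were 39.8 to 122 M counts. Of them 908 carried no Ensembl identifier and held 1.74% to 2.29% of the counts. Symbols, exon lengths and overlaps came from GENCODE M21 (GRCm38) by identifier, which matched 30204, so they may differ from the annotation counted on. A count of 0 was read as up to 3 counts, and intervals cover 95%.

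edgeR 4.0.16 (R 4.3.3) was fitted to all libraries at once with TMM, filterByExpr and the quasi-likelihood test, and p-values were adjusted by Benjamini-Hochberg over 19511 features. A call is an adjusted p under 0.05. The fit was tested on simulated data. Alternatives were other scalings, DESeq2 1.42.0, no filter, Ensembl features only, only the groups compared, subsets of the wild types, replicate or animal-number blocks, a Xist covariate and leaving out each library. The rule for named genes took all 10 members, Usp7, every E-protein target, up to 6 genes of each other list by smallest adjusted p, and the 3 protein-coding genes with the highest Pearson r to each called member. Outside this rule, Xist, Alas2, Tfrc, Kdr, Pecam1, Fcer1a, Il2ra, Ccr9, Ldb1, Gata1, Gata3, Lmo3 and Nhlh2 were added for their role or after their values were seen. The rule takes Slc4a1, Hemgn, Cd8a, Dntt, Hdc, Tie1 and Bmpr1a, but these too were picked for their role or after their values were seen. A few genes that the rule takes are not reported here, although counts and sums over the lists include them. Members, lists and tests were chosen with earlier results of these data known. Nothing in the labels says that the animals of a group were from separate litters, so p-values measure the spread between these samples.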

Additional observations from a re-analysis of the deposited data

Results flagged for a closer look

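Among the 4 wild-type libraries, Tcf12 stood apart in 1: wild type 4 held 664 CPM, while the others held 588 to 600 CPM. The gap to the nearest library, relative to the range of the group, passed Dixon's critical value for 4 samples at the 95% level. Chance alone passes it in about 1 of 20 groups, and the 10 members and Usp7 were each looked at once. Wild type 4 is also the only wild type among the higher animal numbers (56 to 63), where Tcf12 was 634 to 751 CPM over all genotypes. Without this library the log2 fold change of Tcf12 in homozygous KO against wild type was 0.24, with an edgeR adjusted p of 0.03.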

How the results depend on the processing

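Each comparison was refitted under 22 alternatives, of which 1 was chosen after seeing the data. In homozygous KO against wild type, 3 members were called. With either pair of wild types alone (1 or 2 wt words in the title) or with the Xist covariate 0 were called, and 1 to 3 were when single libraries were left out. The animal-number block gave 4 (Tcf3, Tal1, Lmo1 and Lmo2), and DESeq2 also 4 (Tcf12, Tal1, Lmo1 and Lmo2). Against heterozygous KO, also 3, the count was 1 when only these groups were fitted, 5 with the animal-number block (Id3, Tal1, Lyl1, Lmo1 and Lmo2) and 1 to 4 with single libraries left out. Without homozygous KO 1 and 2, the setting added later, it was 0 in both comparisons, where the lone library is assumed to vary like the other groups. The count for heterozygous KO against wild type was 0 throughout. Tal1 was called in homozygous KO against wild type in 11 of 22 alternatives (adjusted p 0.00484 to 0.902), Lmo2 in 13 (0.00127 to 0.968) and Lmo1 in 16 (0.00929 to 0.0764).

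Of the called results, the sign turned for Tal1 against wild type without homozygous KO 1 and 2 (-0.25). The other sign turns were in values that did not pass. In homozygous KO against wild type they were Tcf4 under library totals (-0.05), a scaling that moved the median of all features to -0.11, and with the animal-number block (-0.01), Id1 with the animal-number block (-0.23), and Lyl1 with the replicate block (-0.03) and without homozygous KO 1 and 2 (-0.13). With single libraries left out, Tcf4 ran from -0.02 to 0.12 and Lyl1 from -0.06 to 0.43. In heterozygous KO against wild type, the animal-number block turned Tcf12 (-0.01), Id1 (-0.32) and Tal1 (0.06), the wild types of 1 wt word Id1 (-0.16) and Id2 (0.02), those of 2 wt words Id3 (0.06), and Xist Id3 (0.07). With single libraries left out, Id1 ran from -0.04 to 0.44, Id2 from -0.11 to 0.07, Id3 from -0.11 to 0.01 and Tal1 from -1.10 to 0.04. Between homozygous and heterozygous KO, Tcf4 turned without homozygous KO 1 and 2 (0.05), and with single libraries left out it ran from -0.13 to 0.00 and Id1 from -0.16 to 0.57. The cause was not tested.

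Replicate numbers are shared between the groups, but the labels do not say that they pair animals. Same-numbered libraries had correlations of -0.0906 to 0.2 in their deviations, so they share only a number. With the replicate block, 3 members were called in homozygous KO against wild type, but these were Tcf12 (adjusted p = 0.0313), Id2 (0.0375) and Id3 (0.0258), and Tal1 (0.166), Lmo1 (0.0552) and Lmo2 (0.0603) were not. Depth limits Lmo1 and Tal1, with as few as 5 and 4 counts in a library, and the spread between animals limits Tal1, Lmo2 and Id1.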
